A study of Mus musculus with 24 samples.

Results

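CD73, encoded by Nt5e, and the genes that make, sense, remove and carry adenosine were read in RNA of B cells sorted from spleens of BALB/c mice. The set was a fixed list of 7 of the 23420 genes in the files, namely Entpd1, Nt5e, Adora2a, Adora2b, Ada, Adk and Slc29a1. A total of 6 of them passed the filter on low values, a log2 value of at least 0 in at least 3 libraries, which kept 11885 genes for testing, and Adora2b did not. The 24 libraries came in 8 groups of 3. These were naive B cells; in vitro activated B cells at 4 h, at 12 h and at 24 h; B cells activated in vivo; and B cells of the germinal center (GC), labelled early, peak and late. All groups share the strain and the tissue, and no genotype difference or transgene is labelled. The labels give no stimulus, immunogen, day of collection, age or sex, and they do not say whether replicates came from separate animals or cultures, so the p-values given here reflect the spread among libraries alone, and that spread may be technical.

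Extracellular ATP is cut to AMP by CD39, the product of Entpd1, and AMP is cut to adenosine by CD73 on the cell surface. Adenosine outside the cell is sensed by G protein-coupled receptors, of which the A2a and A2b receptors raise cyclic AMP. It is cleared by uptake through the nucleoside transporter ENT1 or by deamination to inosine through adenosine deaminase. Inside the cell, adenosine is deaminated by adenosine deaminase or phosphorylated to AMP by adenosine kinase. CD73 is a known surface marker in the study of GC and memory B cells, and loss of adenosine deaminase causes severe combined immunodeficiency in humans.

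Between naive and peak GC cells, the first 2 enzymes of the extracellular route changed in opposite directions: Nt5e was 76-fold higher and Entpd1 was 72-fold lower. Ada was 19.6-fold higher, Adk 4.29-fold and Slc29a1 2.71-fold higher, and Adora2a was 8.6-fold lower. Levels are the log2 values in the files, whose scale is like that of CPM (read counts scaled to 1 fixed total per library), since the linear values of a library summed to between 990678 and 1008194. Differences were tested with limma over all genes tested, with Benjamini-Hochberg adjustment, and a gene is called at an adjusted p under 0.05. A total of 6 of the 6 members tested were called between peak GC and naive cells, where 79.7% of all genes tested were called, so the number called says little and the sizes carry the description. Among the 11885 genes tested in that comparison, Nt5e ranked 28 from the highest fold change and Entpd1 ranked 42 from the lowest. The largest sizes depend in part on low levels in 1 of the 2 groups. With 1 CPM added before the logarithm, the log2 fold change of Nt5e shrank from 6.25 to 5.52. That of Entpd1 shrank from -6.17 to -4.64 and that of Adora2a from -3.10 to -2.44.

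**Figure D1:**
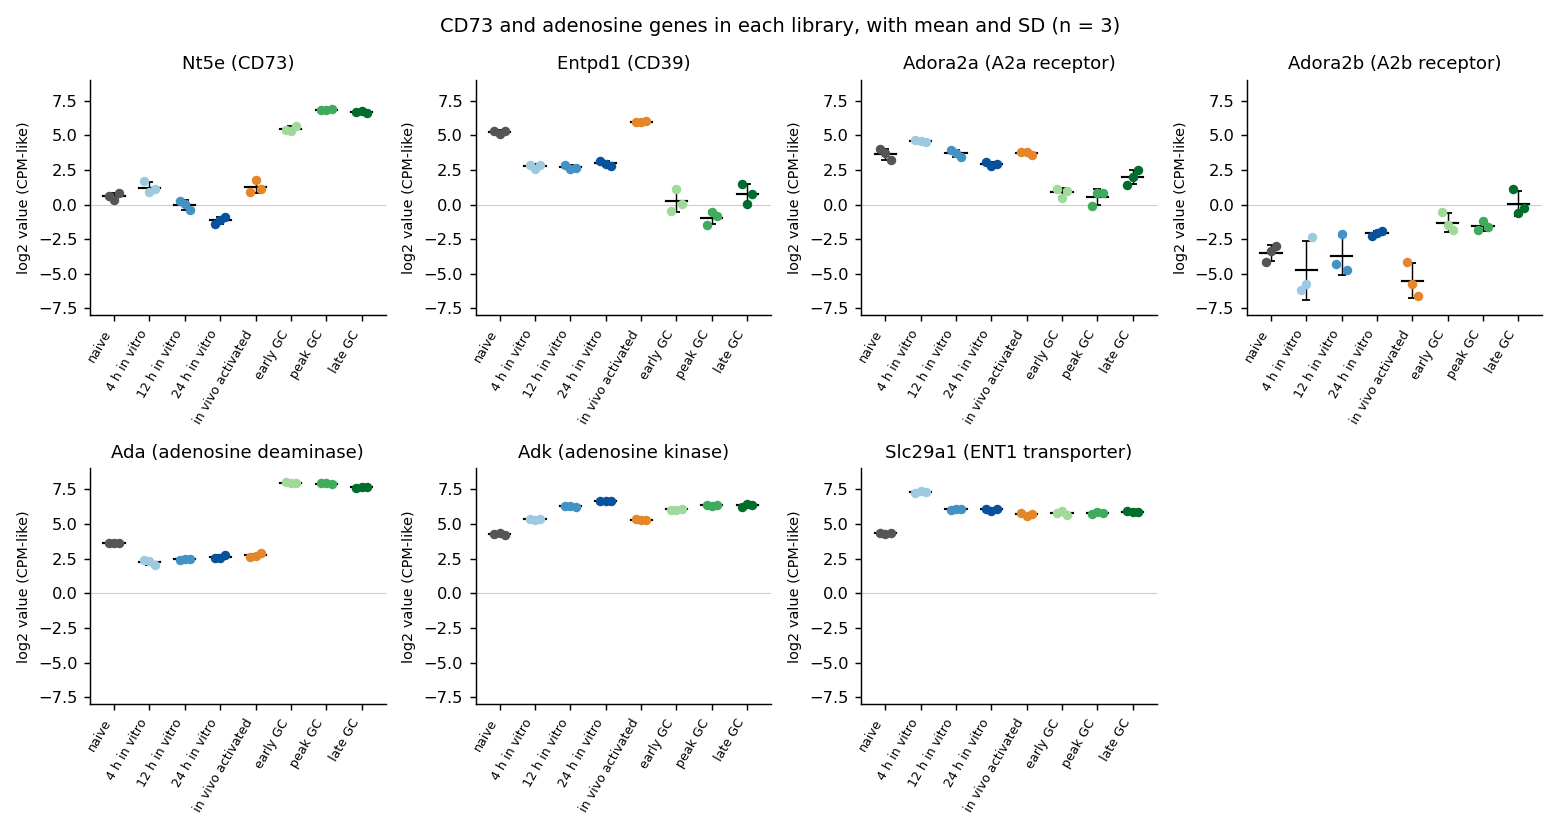
Each panel plots 1 gene, with the deposited log2 value (scale like CPM) on the vertical axis and the 8 groups on the horizontal axis; points are libraries, the bar is the mean and the whiskers are the SD (n = 3). The 9 GC libraries lie between 5.32 and 6.90 for Nt5e and between 7.60 and 8.05 for Ada, above the 15 other libraries, and between -1.49 and 1.47 for Entpd1, below the 15 others.

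The 9 GC libraries did not overlap the 15 others for Nt5e and Ada, which were higher in GC cells, and for Entpd1 and Adora2a, which were lower. Of all genes tested, 9.53% had all GC libraries above the others and 8.46% had them all below. The gap between the nearest libraries was 11.6-fold for Nt5e, 15.6-fold for Ada, 2.12-fold for Entpd1 and 1.22-fold for Adora2a. Adora2b also did not overlap, but its nearest libraries were only 1.03-fold apart. Adk and Slc29a1 overlapped.

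The libraries were checked against their labels. The 6 B-cell markers summed to between 2550 and 6470 CPM in all groups, and 6 GC markers summed to 2070 to 2700 CPM in GC libraries against 41.7 to 715 CPM elsewhere. Markers of macrophages and monocytes (11 of 12 in the files) summed to 122 to 318 CPM in early and peak GC libraries and to 2150, 715 and 502 CPM in late GC replicates 1, 2 and 3, against 8.31 to 63.5 CPM in the other groups. Neutrophil markers (7 of 8 in the files) were likewise highest in late GC replicate 1, at 1130 CPM against 238 and 86.0 CPM in replicates 2 and 3. Markers of NK cells (7 of 7) reached 220 CPM in late GC libraries, against 89.1 CPM or less elsewhere, and T-cell markers (9 of 10) summed to 244 to 291 CPM in GC and 382 to 433 CPM in naive libraries. Most of this sum was Cd2 and Lck, and the CD3 genes were higher in late GC than in naive cells, with mean log2 values of 1.45 against 0.47 for Cd3e, 1.22 against 0.24 for Cd3d and 2.89 against 1.67 for Cd3g. Erythroid markers (5 of 7) summed to 139 to 370 CPM in early, 78.1 to 97.7 CPM in peak and 330 to 510 CPM in late GC libraries, against 40.3 to 45.4 CPM in naive and 10.5 CPM or less in the remaining libraries, with Hba-a1 at the floor throughout. The part of these cell types in the results on the adenosine genes was not tested. Late GC replicate 1 therefore stands apart. For the 6 members tested, calls on late GC cells that changed without it are stated, and some values are also given without it. Adora2b was not refitted without it. The Y-linked genes Ddx3y, Eif2s3y and Kdm5d had mean log2 values of 4.05 to 5.75 in naive and in vitro cells and -6.18 in in vivo activated and GC cells, so any effect that goes with this difference cannot be told apart from that of GC or in vivo activation against naive cells.

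**Figure D2:**
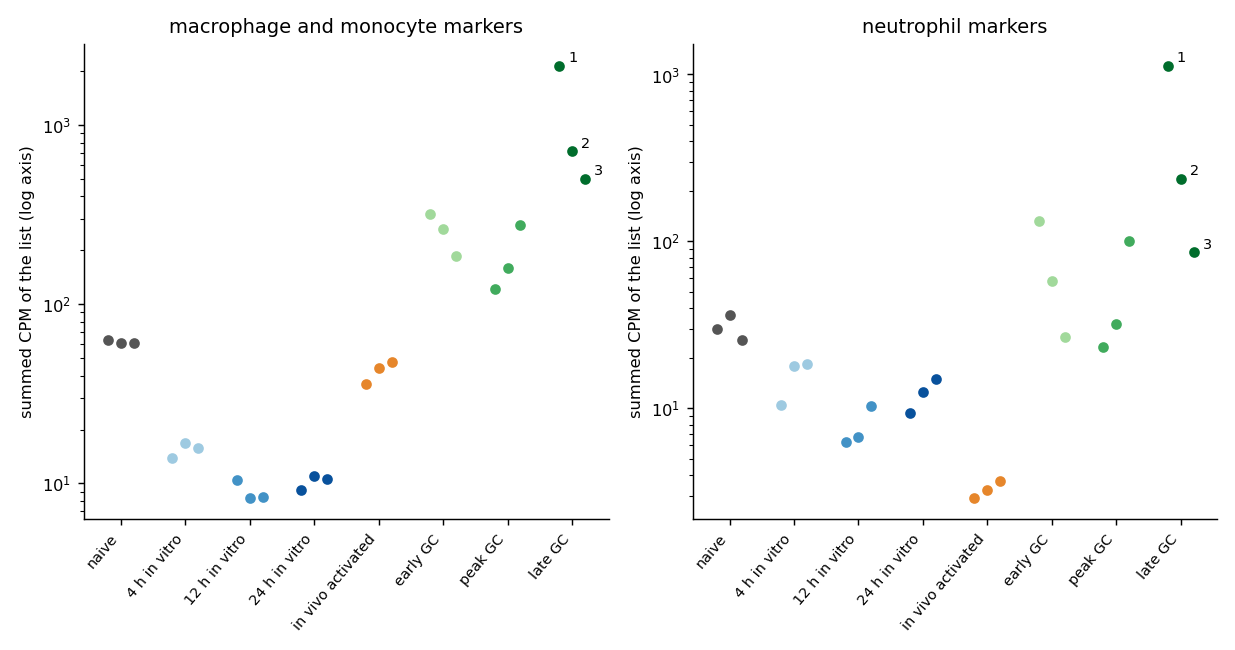
Summed CPM of the macrophage and monocyte markers and of the neutrophil markers in each library, on log axes, by group, with the late GC replicates numbered. Late GC replicate 1 has the highest sum in both panels, at 2150 and 1130 CPM.

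The genes lie on 7 chromosomes of GRCm38 (mm10): Nt5e at chr9:88327197-88372092, Entpd1 at chr19:40612366-40741602, Adora2a at chr10:75316877-75334784, Adora2b at chr11:62248984-62266453 and Adk at chr14:21052574-21448569 on the plus strand, and Ada at chr2:163726584-163750239 and Slc29a1 at chr17:45585200-45599606 on the minus strand. All are annotated as protein-coding. Exons of the antisense gene Gm17080 overlap those of Slc29a1, and since the strand setting of the counting is not given in the sources used here, their reads may not be separated. The 250 bases before the annotated start are shown for the gene that was highest in GC cells (Ada, chr2:163750240-163750489, minus strand), the gene with the deepest fall (Entpd1, chr19:40612116-40612365, plus strand) and a receptor gene at low levels whose GC libraries lay above the others by a narrow margin (Adora2b, chr11:62248734-62248983, plus strand). They are RefSeq promoters on GRCm38.p6, read 5′ to 3′, with capitals marking GGGCGG (the GC box, named for its bases, on either strand) in Ada and Adora2b, and TGACG (the core letters of a cAMP response element, on either strand) in Entpd1.
Ada: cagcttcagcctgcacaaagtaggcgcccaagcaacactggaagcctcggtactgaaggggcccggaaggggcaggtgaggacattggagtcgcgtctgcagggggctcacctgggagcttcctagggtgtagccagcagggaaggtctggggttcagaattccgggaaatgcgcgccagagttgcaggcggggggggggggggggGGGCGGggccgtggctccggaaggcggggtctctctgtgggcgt
Entpd1: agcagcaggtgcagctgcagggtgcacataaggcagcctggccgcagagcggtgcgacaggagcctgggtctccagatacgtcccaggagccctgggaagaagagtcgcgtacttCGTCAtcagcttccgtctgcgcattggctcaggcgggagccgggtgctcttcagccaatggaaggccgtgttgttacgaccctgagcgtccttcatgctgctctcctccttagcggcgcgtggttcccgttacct
Adora2b: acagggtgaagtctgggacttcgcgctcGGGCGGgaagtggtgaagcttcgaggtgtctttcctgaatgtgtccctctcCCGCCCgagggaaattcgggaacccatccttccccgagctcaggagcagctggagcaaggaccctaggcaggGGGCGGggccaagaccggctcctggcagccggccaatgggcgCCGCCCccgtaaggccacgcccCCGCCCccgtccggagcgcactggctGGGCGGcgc
The Ada window held 1 GC box, the Adora2b window 6 and the Entpd1 window none. The GC box occurred in 32.7% and TGACG in 17.8% of the 32851 promoters in the table. None of the 3 windows held ACGTG (hypoxia-inducible factor core, in 16.6% of promoters) or TGANTCA (AP-1, in 6.75%), and CANNTG (E-box, in 66.2%) occurred 2 times in Ada, 2 times in Entpd1 and 1 time in Adora2b. The table held 6 of the 7 genes, with no entry for Adora2a. Entpd1 had 2 starts in it, of which the first is shown. The window before the second (chr19:40659520-40659769) also held 1 TGACG match. These are matches of letters and show no binding.

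Entpd1, the gene of the ectonucleotidase CD39, was highest in in vivo activated cells and lowest in peak GC cells. Its log2 values were 5.28, 5.06 and 5.32 in naive libraries 1, 2 and 3, and 5.92, 5.94 and 5.99 in in vivo activated ones. They were 2.87, 2.58 and 2.83 at 4 h in vitro, 2.85, 2.55 and 2.64 at 12 h, and 3.16, 2.90 and 2.81 at 24 h. Early GC libraries had -0.44, 1.10 and 0.05, peak GC libraries -1.49, -0.56 and -0.80, and late GC libraries 1.47, 0.05 and 0.78. The levels thus formed 3 tiers that did not overlap: naive and in vivo activated cells, in vitro activated cells, and GC cells. In bulk RNA, fewer cells of a type and less RNA per cell cannot be told apart.

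Entpd1 was already 5.49-fold lower than in naive cells at 4 h in vitro (log2 fold change -2.46 ± 0.32, SE; limma adjusted p = 3.82e-07), and remained lower at 12 h (-2.54 ± 0.32) and 24 h (-2.26 ± 0.32). No step between in vitro times was called (12 h against 4 h -0.08 ± 0.32, adjusted p = 0.834; 24 h against 12 h 0.28 ± 0.32, adjusted p = 0.466; limma). In GC cells the fall against naive cells was larger, at -4.98 ± 0.32 at the early stage, -6.17 ± 0.32 at the peak and -4.45 ± 0.32 at the late stage (limma adjusted p = 4.22e-12, 9.29e-14 and 2.75e-11). Compared with in vivo activated cells, Entpd1 was 52.5-fold, 120.0-fold and 36.4-fold lower in early, peak and late GC cells. The sizes of these falls depend on GC levels near 1 CPM. With 1 CPM added before the logarithm, the early, peak and late log2 fold changes were -4.82, -5.36 and -4.51 against in vivo activated cells. Against naive cells they were -4.10, -4.64 and -3.80. The comparisons with naive cells share the naive libraries. In vivo activated cells had 1.66-fold more Entpd1 than naive cells (0.73 ± 0.32, limma adjusted p = 0.039), a call that ended when any 1 of the 6 libraries was left out (adjusted p 0.0563 to 0.105).

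Within the GC, Entpd1 was 2.28-fold lower in peak than in early cells (-1.19 ± 0.32, limma adjusted p = 0.0149) and 3.29-fold higher in late than in peak cells (1.72 ± 0.32, limma adjusted p = 0.000389). The first of these calls was lost without early GC replicate 2 (-0.76, adjusted p = 0.11) or without peak GC replicate 1 (-0.92, adjusted p = 0.0782). The second held without late GC replicate 1, at 1.36 (adjusted p = 0.00325). With 1 CPM added before the logarithm it was 0.85, since both levels are near 1 CPM. Late and early GC cells were not called different (0.53 ± 0.32, limma adjusted p = 0.203), but a call arose without early GC replicate 2 (0.96, adjusted p = 0.0152) or late GC replicate 2 (0.89, adjusted p = 0.0354). Without late GC replicate 1 the difference was 0.18 (limma adjusted p = 0.7). The library with the highest macrophage and neutrophil marker sums, late GC replicate 1, also had the highest Entpd1 of the GC libraries. Macrophage and monocyte sums lacked the order of Entpd1 within early (318, 263 and 187 CPM in replicates 1, 2 and 3) and peak GC cells (122, 160 and 278 CPM). Erythroid sums had the order of Entpd1 within each stage. They were 139, 370 and 262 CPM in early, 78.1, 97.7 and 78.7 CPM in peak, and 510, 330 and 396 CPM in late GC replicates. The part of these markers in the Entpd1 levels of GC cells was not tested. Marker sums of marginal zone B cells (7 of 7) were 2360 to 2450 CPM in naive and 638 to 728 CPM in in vivo activated libraries, 206 to 830 CPM in vitro and 593 to 723 CPM in GC libraries, and the part of these markers in the Entpd1 levels was not tested.

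Nt5e, the gene of CD73, was low in every group outside the GC and high in each GC group. Naive libraries 1, 2 and 3 had log2 values of 0.61, 0.34 and 0.84, and in vivo activated libraries 0.90, 1.78 and 1.11. Early GC libraries had 5.38, 5.32 and 5.67, peak GC libraries 6.80, 6.84 and 6.90, and late GC libraries 6.66, 6.76 and 6.60. In CPM the naive mean was 1.53 ± 0.263 and the peak GC mean 115 ± 4.02 (SD, n = 3). The lowest GC library thus lay far above the highest other library.

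Against naive cells, Nt5e was 29-fold higher in early GC cells (4.86 ± 0.22, limma adjusted p = 1.72e-15), 76-fold in peak GC cells (6.25 ± 0.22, 1.28e-17) and 67.4-fold in late GC cells (6.07 ± 0.22, 2.48e-17). Its level was 18.3-fold, 47.8-fold and 42.4-fold above that of in vivo activated cells at the early, peak and late stages. With 1 CPM added before the logarithm, the early, peak and late log2 fold changes were 4.16, 5.52 and 5.35 against naive cells. Against in vivo activated cells they were 3.71, 5.08 and 4.91. The rise continued within the GC, with peak cells 2.62-fold above early cells (1.39 ± 0.22, limma adjusted p = 0.000102) and the libraries not overlapping. Late and peak cells were not called different (-0.17 ± 0.22, limma adjusted p = 0.566), and late cells were 2.32-fold above early cells (1.21 ± 0.22, adjusted p = 0.000172). Between peak and early GC cells, Nt5e ranked 73 from the highest of 11885 genes. Leaving out late GC replicate 1 changed none of the calls on Nt5e. Regulatory T cells also carry CD73 and CD39 on their surface. The markers of regulatory T cells (6 of 6 in the files) summed to 19.4 to 35.1 CPM in GC libraries, 20.9 to 26.2 CPM in naive ones, 40.7 to 48.0 CPM in in vivo activated ones and 193 to 303 CPM in vitro. Single markers moved in different directions: from naive to early, peak and late GC cells, the mean log2 value of Ctla4 went from 0.33 to 4.38, 4.64 and 3.96, and that of Il2ra from 1.99 to 0.87, 0.85 and 0.17. The defining marker Foxp3 had a mean log2 value of -3.04 in naive cells and between -4.17 and -3.21 in the 3 GC groups. The part of these markers in the Nt5e level was not tested.

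In activated cells outside the GC, Nt5e stayed low, and its changes against naive cells were not all in 1 direction. It had log2 values of 1.68, 0.90 and 1.09 at 4 h in vitro, 0.29, 0.01 and -0.41 at 12 h, and -1.43, -1.09 and -0.93 at 24 h. It was thus above naive cells at 4 h and below them at 12 h and 24 h, with no overlap in any of these comparisons. The fold changes against naive cells were 0.63 ± 0.22, -0.63 ± 0.22 and -1.75 ± 0.22 on the log2 scale (limma adjusted p = 0.0115, 0.0103 and 9.31e-08). The first was lost without naive replicate 2 (adjusted p = 0.0639) or 4 h replicate 1 (adjusted p = 0.105), and the second without naive replicate 3 (0.0574) or 12 h replicate 3 (0.0809). Both steps between in vitro times were called, at -1.26 ± 0.22 from 4 h to 12 h (limma adjusted p = 2.68e-05) and -1.12 ± 0.22 from 12 h to 24 h (0.00014). Cells activated in vivo were 1.59-fold above naive cells (0.67 ± 0.22, limma adjusted p = 0.00734), and 0.41 (adjusted p = 0.083) without in vivo activated replicate 2. At these levels, 1 CPM added before the logarithm shrank the 24 h change from -1.75 to -0.79.

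The ratio of the 2 enzymes within a library turned over between GC cells and all others. Levels of different genes were set side by side per kilobase of exon, with all annotated exons of a gene merged. The transcripts present may be shorter, so the distance of a pair from 0 is approximate. Nt5e minus Entpd1 was -5.25 ± 0.13 on the log2 scale in naive cells and -5.31 ± 0.46 in in vivo activated cells (SD, n = 3). In vitro it was -2.16 ± 0.30 at 4 h, -3.34 ± 0.29 at 12 h and -4.73 ± 0.44 at 24 h. It was 4.60 ± 0.87 in early, 7.17 ± 0.45 in peak and 5.28 ± 0.77 in late GC cells. Every GC library was thus above 0 and every other library below it. These differences are a description of the values above, with no test of their own.

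**Figure D3:**
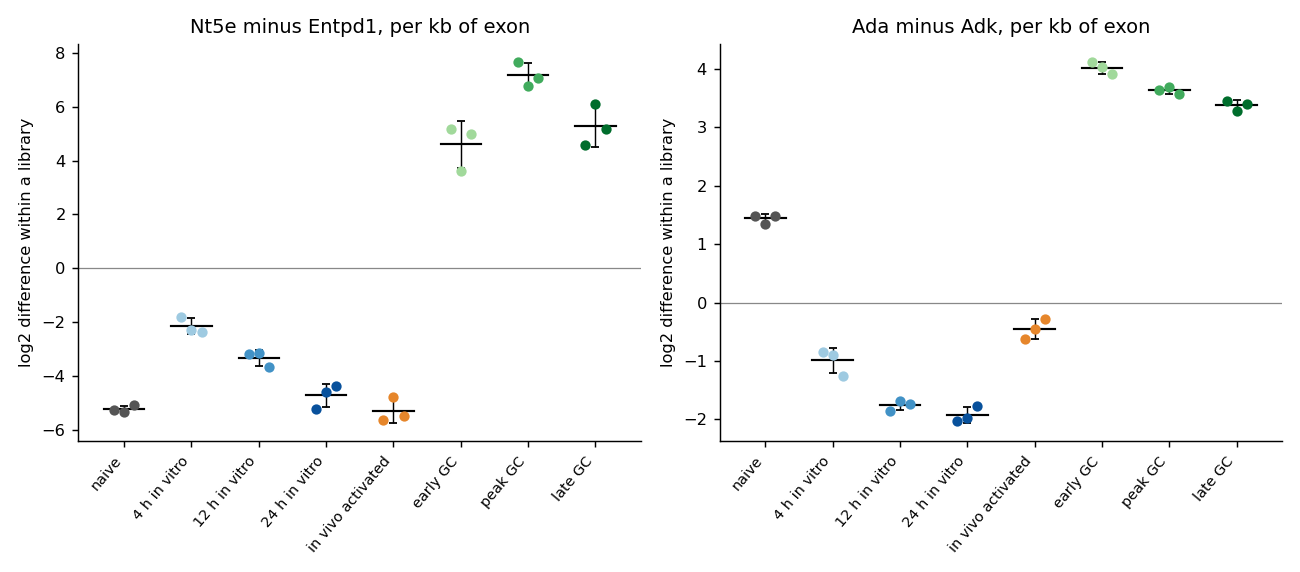
Within-library log2 differences per kilobase of exon, Nt5e minus Entpd1 and Ada minus Adk, by group, with points for libraries, bars for means and whiskers for the SD (n = 3). The first pair is below 0 in the 5 groups outside the GC and above 0 in the 3 GC groups, where it reaches 7.17 in peak GC cells.

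Adora2a, the gene of the A2a receptor, was lower in GC cells than in all other groups. Its log2 values were 4.00, 3.69 and 3.18 in naive libraries, 3.79, 3.78 and 3.57 in in vivo activated ones, and 4.63, 4.57 and 4.49 at 4 h in vitro. At 12 h they were 3.92, 3.73 and 3.41, and at 24 h 3.05, 2.77 and 2.89. Early GC libraries had 1.15, 0.50 and 0.97, peak GC libraries -0.14, 0.83 and 0.86, and late GC libraries 1.44, 1.98 and 2.48. The 4 h libraries were the highest of the series, and the late GC libraries were the highest of the GC.

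Adora2a was 6.73-fold lower in early, 8.6-fold in peak and 3.15-fold lower in late GC cells than in naive cells (-2.75 ± 0.26, -3.10 ± 0.26 and -1.66 ± 0.26; limma adjusted p = 2.65e-09, 3.2e-10 and 5.05e-06). The falls from in vivo activated cells were 7.17-fold, 9.16-fold and 3.36-fold. Late GC cells had 2.73-fold more Adora2a than peak cells (1.45 ± 0.26, limma adjusted p = 0.000283) and 2.14-fold more than early cells (1.09 ± 0.26, adjusted p = 0.00263). Late GC replicate 1, with the highest myeloid marker sums, had the lowest Adora2a of the late GC libraries, and the difference from peak cells was 1.72 without it. NK-cell marker sums had the order of Adora2a, at 87.6, 117 and 220 CPM in late GC replicates 1, 2 and 3. In peak GC replicates 1, 2 and 3 the NK sums were 42.9, 45.6 and 58.1 CPM, also in the order of Adora2a. In early GC replicates 1, 2 and 3 they were 45.2, 42.8 and 47.6 CPM and lacked that order. The part of these cell types in the Adora2a levels was not tested. In vitro, Adora2a rose 1.92-fold by 4 h (0.94 ± 0.26, limma adjusted p = 0.00238) and was 1.64-fold below naive cells at 24 h (-0.72 ± 0.26, 0.0145), the latter not called without naive replicate 1 (-0.53, adjusted p = 0.0876). The 12 h values were not called against naive cells (0.06 ± 0.26, adjusted p = 0.838), nor were those of in vivo activated cells (0.09 ± 0.26, adjusted p = 0.754). The steps from 4 h to 12 h (-0.88 ± 0.26, limma adjusted p = 0.0056) and from 12 h to 24 h (-0.78 ± 0.26, 0.0145) were both called, the second not without 12 h replicate 1 (0.0642) or 24 h replicate 2 (0.0505).

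Adora2b, the gene of the low-affinity A2b receptor, was scarce everywhere, with 1 library of 24 above a log2 value of 0. That library was late GC replicate 1, at 1.09, and the other late GC libraries had -0.65 and -0.23. Early GC libraries had -0.55, -1.51 and -1.85 and peak GC libraries -1.83, -1.15 and -1.64. Naive libraries had -4.12, -3.34 and -3.01, and the 24 h in vitro libraries had -2.27, -2.09 and -1.90, just under the lowest GC library. The 4 h, 12 h and in vivo activated libraries ranged from -6.61 to -2.10, and the mean of the in vivo activated ones lay under the floor of -5, below which values are taken as not measured. With no filter on low values, a fit in which many genes at the floor have almost no spread, Adora2b was 3.56 ± 0.89 higher in late GC than in naive cells on the log2 scale (limma adjusted p = 0.0028), and was not called in early (2.19 ± 0.89, 0.0586) or peak GC cells (1.95 ± 0.89, 0.094). Against in vivo activated cells, with their mean under the floor, early and peak GC cells were also called higher (4.18 ± 0.89, limma adjusted p = 0.00102, and 3.95 ± 0.89, 0.00164). Late GC cells were not called against early (1.37 ± 0.89, limma adjusted p = 0.389) or peak GC cells (1.61 ± 0.89, 0.281). That fit was not rerun without late GC replicate 1. The part of the myeloid markers of that library in the late GC level of Adora2b was not tested. Per kilobase, Adora2a exceeded Adora2b by 6.38 ± 0.97 in naive cells and by 1.45 ± 0.58 in early, 1.33 ± 0.40 in peak and 1.17 ± 1.34 in late GC cells (log2, SD, n = 3). Late GC replicate 1 lowered that last mean, with -0.39 against 1.90 and 1.98 in replicates 2 and 3.

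Ada, the gene of adenosine deaminase, had the highest level per kilobase of the set in GC cells and was below its naive level in every other activated group. Its log2 values were 8.05, 7.96 and 7.93 in early GC libraries, 7.93, 7.92 and 7.86 in peak GC libraries, and 7.60, 7.64 and 7.69 in late GC libraries. Naive libraries had 3.64, 3.60 and 3.60, and in vivo activated ones 2.64, 2.71 and 2.88. In vitro, values were 2.40, 2.32 and 2.03 at 4 h, 2.38, 2.50 and 2.44 at 12 h, and 2.55, 2.55 and 2.77 at 24 h. Libraries of 1 group lay within 0.4 of each other, while GC and other libraries were about 4 log2 units or more apart. Per kilobase, the early GC mean was above 96.8% of the 11198 tested genes with a length, against 50.2% in naive cells.

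Against naive cells, Ada was 20.7-fold higher in early GC cells (4.37 ± 0.08, limma adjusted p = 2.18e-22), 19.6-fold in peak GC cells (4.29 ± 0.08, 2.48e-22) and 16.4-fold in late GC cells (4.03 ± 0.08, 8.1e-22). It was 37.7-fold, 35.8-fold and 29.9-fold above in vivo activated cells. It fell 2.57-fold by 4 h in vitro (-1.36 ± 0.08, limma adjusted p = 4.59e-13), was 2.26-fold and 1.98-fold below naive cells at 12 h and 24 h (-1.17 ± 0.08 and -0.99 ± 0.08), and was 1.83-fold below them in in vivo activated cells (-0.87 ± 0.08, limma adjusted p = 1.72e-09). Within the GC it was not called between early and peak cells (-0.07 ± 0.08, limma adjusted p = 0.635) and was slightly lower in late cells, by -0.33 ± 0.08 against early (adjusted p = 0.0035) and -0.26 ± 0.08 against peak cells (0.0204). The latter was not called without peak GC replicate 1 (0.063), peak GC replicate 2 (0.0561) or late GC replicate 1 (0.0663). Nt5e and Ada thus reached their highest means at different GC stages, Nt5e in peak and Ada in early cells, though neither differed by the test from its neighbouring stage in that order (adjusted p = 0.566 between peak and late for Nt5e, and 0.635 between early and peak for Ada; limma).

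Adk, the gene of adenosine kinase, was lowest in naive cells and higher in every other group. Naive libraries had log2 values of 4.24, 4.33 and 4.20, and the 24 h in vitro libraries, the highest, had 6.67, 6.63 and 6.63. It was at 5.33, 5.30 and 5.37 at 4 h and at 6.32, 6.28 and 6.25 at 12 h, so that the in vitro times rose in order without overlap. In vivo activated libraries had 5.36, 5.26 and 5.25, early GC libraries 6.02, 6.01 and 6.10, peak GC libraries 6.38, 6.31 and 6.38, and late GC libraries 6.24, 6.45 and 6.39. Adk was 2.1-fold above naive cells at 4 h (1.07 ± 0.06, limma adjusted p = 2.34e-14), 4.07-fold at 12 h (2.03 ± 0.06) and 5.22-fold at 24 h (2.38 ± 0.06). It was 2.04-fold higher in in vivo activated cells (1.03 ± 0.06, limma adjusted p = 5.29e-14), 3.46-fold in early GC cells (1.79 ± 0.06) and 4.29-fold in both peak and late GC cells (2.10 ± 0.06 each). Peak GC cells were 1.24-fold above early ones (0.31 ± 0.06, limma adjusted p = 0.000457), while late and peak cells differed by 0.00 ± 0.06 (adjusted p = 0.991). Per kilobase, Ada minus Adk was 1.44 ± 0.08 in naive cells, fell below 0 in vitro (-0.99 ± 0.22, -1.76 ± 0.08 and -1.93 ± 0.14 at 4 h, 12 h and 24 h) and in in vivo activated cells (-0.46 ± 0.17), and was 4.02 ± 0.10, 3.64 ± 0.07 and 3.38 ± 0.09 at the early, peak and late GC stages. The side of 0 depends on the merged exon lengths used, 2.0 kb for Ada and 8.53 kb for Adk.

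Slc29a1, the gene of the equilibrative nucleoside transporter ENT1, had its highest level at 4 h in vitro. Its log2 values there were 7.25, 7.36 and 7.27, against 4.37, 4.26 and 4.35 in naive libraries. At 12 h they were 5.99, 6.05 and 6.06 and at 24 h 6.05, 5.96 and 6.10. In vivo activated and GC libraries lay between 5.57 and 5.94. The naive libraries were thus the lowest, the 4 h libraries the highest, and the other 6 groups fell within a range of less than 0.6 log2. Slc29a1 was 7.79-fold higher at 4 h than in naive cells (2.96 ± 0.07, limma adjusted p = 1.31e-20) and 3.27-fold higher at both 12 h and 24 h (1.71 ± 0.07 each). It fell 2.39-fold from 4 h to 12 h (-1.25 ± 0.07, limma adjusted p = 1.94e-13), and 12 h and 24 h differed by 0.00 ± 0.07 (adjusted p = 0.987). Against naive cells it was 2.55-fold higher in in vivo activated cells (1.35 ± 0.07), 2.76-fold in early (1.47 ± 0.07), 2.71-fold in peak (1.44 ± 0.07) and 2.92-fold in late GC cells (1.55 ± 0.07). None of the 3 steps within the GC was called (limma adjusted p = 0.859, 0.219 and 0.359 for peak against early, late against peak and late against early). Late GC cells were 1.15-fold above in vivo activated cells (0.20 ± 0.07, limma adjusted p = 0.00965), a call lost without in vivo activated replicate 2 (0.0682).

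**Figure D4:**
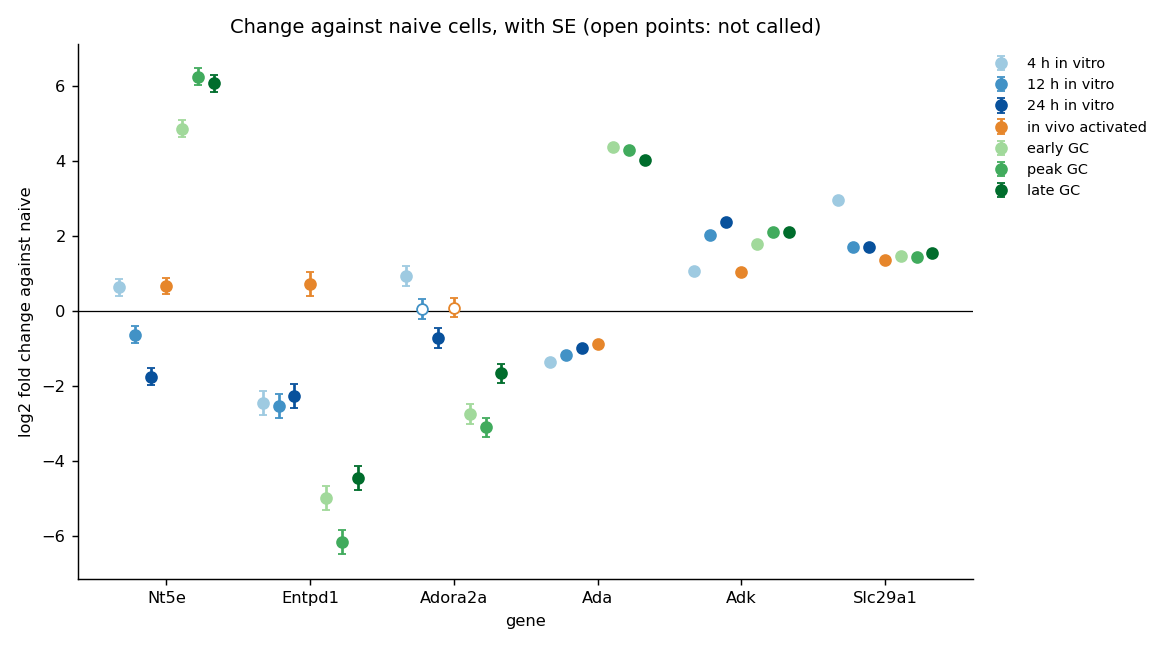
Log2 fold changes against naive cells with their SE for the 6 genes tested, 1 color per group, with open points for changes that were not called. Nt5e and Ada are above 0 by 4 or more in the 3 GC groups, Entpd1 and Adora2a are below 0 there, and Adk and Slc29a1 are above 0 in all 7 groups.

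Counted by comparison, 6 of the 6 genes tested were called against naive cells at 4 h (where 78% of all genes tested were called), 5 at 12 h (80.9%), 6 at 24 h (84.8%) and 5 in in vivo activated cells (79.3%). The 6 were also called in early (79.7%) and late (81.6%) GC cells. Against in vivo activated cells, 5 were called in early (69.5%), 5 in peak (69.2%) and 6 in late GC cells (73.3%). These shares lie near the background, so the counts are no result about these genes. Within the GC, 3 of 6 were called between peak and early cells (Nt5e and Adk higher, Entpd1 lower), where 13.2% of all genes were called (5.77% higher and 7.42% lower). Between late and peak cells 3 were called (Entpd1 and Adora2a higher, Ada lower; 32.6% of all genes, 12% higher and 20.6% lower), and between late and early cells 4 (Nt5e, Adora2a and Adk higher, Ada lower; 35.1%, 13% higher and 22.1% lower). From 4 h to 12 h in vitro 4 were called (61.9% of all genes) and from 12 h to 24 h 3 (57.3%).

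The genes whose 24 values followed each member most closely were ranked by Pearson correlation among 9226 tested genes with a highest group mean of at least log2 3, as a description in which all points share the normalization and the large gap between GC and other cells. Genes with clone-like or predicted-gene names, such as Gm and Rik names, were left out before ranking. For Nt5e the closest of the ranked genes were Rbm45 (0.985), Ino80c (0.979), Epn2 (0.978), Lmo7 (0.978) and H1fx (0.976), and for Ada they were Clip2 (0.994), Ppp2r5a (0.991) and S1pr2 (0.989), the last a receptor gene used here to check the GC label. Entpd1 was followed by Rb1 (0.984), Esyt1 (0.977) and Dpp4 (0.977), and Adora2a by Itfg3 (0.943), Leprotl1 (0.941) and Tnik (0.938). Adk was followed by the galactokinase gene Galk1 (0.971), Zfp422 (0.971) and Hnrnpd (0.954). Slc29a1 was followed by the amino acid transporter genes Slc7a5 (0.966) and Slc1a4 (0.950) and the alanyl-tRNA synthetase gene Aars (0.946). The closest to Adora2b was Ramp1 (0.922).

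The members were set beside 6 lists of pathway genes taken from textbook roles. Of 16 genes listed as ecto-nucleotidases or related enzymes, 11 were tested. In peak GC against naive cells 2 rose and 9 fell, with a median log2 fold change of -1.02. Of those that fell, Entpd5 (-0.17), Entpd7 (-0.41), Entpd6 (-0.68) and Cant1 (-1.02) encode enzymes located mainly inside the cell. Over all genes tested, 40.5% rose and 39.3% fell, with a median of 0.01. The 2 that rose were Nt5e and Enpp1, whose product cuts ATP to AMP directly, at 7.78 ± 0.15 in peak GC and 5.66 ± 0.04 in naive cells (2.12 ± 0.07, limma adjusted p = 9.37e-18). Among those that fell were Cd38, whose product cuts NAD, from 6.97 ± 0.03 to 2.16 ± 0.32 (-4.81 ± 0.11, 6.91e-21), and Alpl, the tissue-nonspecific alkaline phosphatase that also releases adenosine from AMP, from 3.24 ± 0.15 to -1.98 ± 0.29 (-5.22 ± 0.18, 8.86e-18). Against in vivo activated cells, 4 of the 11 rose and 6 fell in peak GC cells (median -0.21; over all genes 34.1% rose and 35% fell, median -0.01), with Enpp1 higher by 3.81 ± 0.07 and Alpl lower by -8.60 ± 0.18. Between late and early GC cells, Cd38 fell further, from 3.77 ± 0.12 to 0.25 ± 0.18 (-3.52 ± 0.11, limma adjusted p = 7.38e-16), where 2 of 11 rose and 4 fell (over all genes tested, 13% rose and 22.1% fell).

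Of 18 adenosine and P2 receptors, 8 were tested. In peak GC against naive cells 2 rose and 4 fell (median -1.10). The most surely lower was P2rx4, an ATP-gated channel gene, from 5.32 ± 0.13 to 2.40 ± 0.29 (-2.92 ± 0.11, limma adjusted p = 7.11e-17), followed by Adora2a. Of 10 genes for nucleoside transport and ATP release, 8 were tested, of which 2 rose and 6 fell (median -0.65). Besides Slc29a1, the gene that rose was the cyclic nucleotide exporter Abcc4 (0.48 ± 0.10, adjusted p = 8.49e-05), while the lysosomal nucleoside transporter Slc29a3 (-1.80 ± 0.08) and the vesicular nucleotide transporter Slc17a9 (-2.13 ± 0.17) fell. Slc29a1 was therefore higher in GC cells while most other tested genes of its list were lower. Of 32 genes for intracellular adenosine, AMP and purine salvage, 26 were tested, of which 18 rose and 5 fell (median 0.51), with Ada and Adk the most surely higher and Ahcyl2 (-1.91 ± 0.10) and Impdh1 (-1.39 ± 0.08) the most surely lower. With in vivo activated cells as the reference, 9 of these 26 rose and 10 fell in peak GC cells (median -0.03), with Dck, deoxycytidine kinase, higher by 1.78 ± 0.08 and Mtap, methylthioadenosine phosphorylase, lower by -2.26 ± 0.06.

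**Figure D5:**
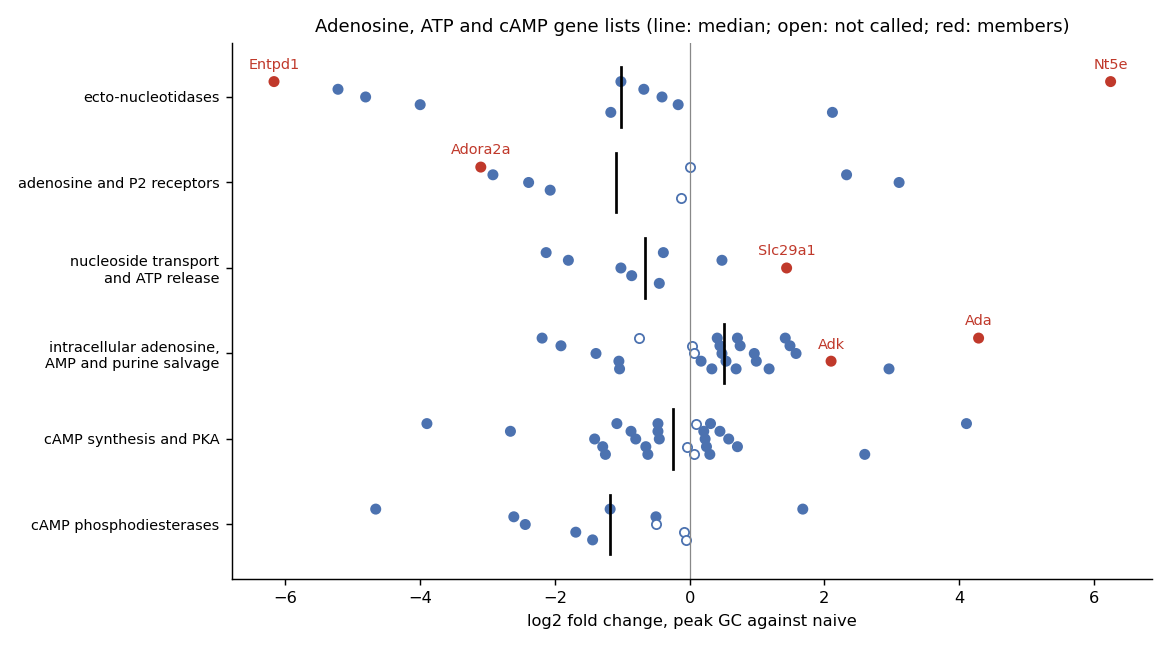
Log2 fold changes of peak GC against naive cells for the tested genes of the 6 lists, 1 row per list, with a black line at the list's median, open points for changes not called, and the members in red. Nt5e (6.25) and Entpd1 (-6.17) are the outermost points of the whole plot.

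Around the cAMP signal that the A2 receptors raise, 33 genes were listed for cAMP synthesis, its effector kinase PKA, other effectors and inhibitors. Of these, 26 were tested, and in peak GC against naive cells 10 rose and 13 fell (median -0.25). These counts mix activators and inhibitors. Those that rose included Gnai2 (0.30) and Gnai3 (0.23), for G proteins that inhibit cAMP synthesis, and Pkig (0.58), for a PKA inhibitor. Rapgef3, the gene of the cAMP-activated exchange factor EPAC1, rose from 0.23 ± 0.21 to 4.34 ± 0.08 (4.11 ± 0.18, limma adjusted p = 6.42e-16), and Akap1, a mitochondrial PKA anchor, rose by 2.6 ± 0.13. Crem, the gene of a cAMP-responsive transcription factor, fell by 2.66 on the log2 scale (SE 0.09), and the coactivator gene Crebbp fell by 1.41 (SE 0.10). The changes in Akap1, Crem and Crebbp were not particular to GC cells. Mean log2 values at 24 h in vitro, in vivo activated and at peak GC were 5.24, 3.84 and 3.55 for Akap1. They were 3.50, 3.98 and 4.15 for Crem and 5.20, 6.06 and 6.29 for Crebbp. Against in vivo activated cells, 12 of the 26 were higher and 7 lower in peak GC cells (median 0.11), beside 34.1% and 35% of all genes tested. Of 13 cAMP phosphodiesterases, which end the signal, 11 were tested, of which 1 rose (Pde4c, 1.68 ± 0.17) and 7 fell (median -1.18). Pde8a fell from 4.71 ± 0.10 to 0.05 ± 0.09 (-4.66 ± 0.11, limma adjusted p = 4.33e-21) and Pde2a from 8.33 ± 0.18 to 5.89 ± 0.16 (-2.44 ± 0.12, adjusted p = 9.61e-15). Against in vivo activated cells the same list had 5 higher and 3 lower (median 0.15), and Pde2a was higher there by 3.52 ± 0.12, while Pde8a was lower by -4.46 ± 0.11. Late against early GC cells showed 1 higher and 5 lower of the 11 (13% and 22.1% over all genes tested), with Pde8a at -2.23 ± 0.11 and Pde2a at -1.51 ± 0.12.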

How the data were processed

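RNA of sorted splenic B cells was sequenced in 24 libraries. Per the submitters' processing notes, the tools were STAR 2.6.0c, Subread 1.6.2 with featureCounts, cutadapt 1.8.3, FastQC 0.11.5 and limma, and the genome was mm10; counting options and the strand setting are not given in the sources used here. The deposited log2 values have a CPM-like scale, judged from their linear sums. For each gene the 3 replicate numbers had equal means in the deposited values, so a difference between numbers had been removed upstream. Depth is unknown, so no limit of detection is given.

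Genes with a log2 value of at least 0 (1 CPM) in at least 3 libraries were tested with limma 3.58.1 in R 4.3.3 (1 mean per group over all 24 libraries, variance trend, robust moderation, two-sided, Benjamini-Hochberg adjustment over all genes tested). The scripts were tested on simulated data. Tables and figures were made with matplotlib 3.10.9, pandas 2.3.3 and numpy 2.4.6 in Python 3.11.15. Exon lengths (all annotated exons of a gene merged) and positions are from GENCODE M21, and promoters from RefSeq (GRCm38.p6).

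The members and the pathway and marker lists were chosen with earlier results of these data known. From each pathway list, up to 2 called genes per direction with the smallest p and a mean of at least log2 1 in the higher group are eligible to be named in 5 comparisons. Alternatives were the replicate block, other filters, 1 CPM added before the logarithm, no trend, only the 2 groups compared, and each library left out in turn. Further pairs of groups and Adora2b with no filter were added after seeing the data.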

Additional observations from a re-analysis of the deposited data

Results flagged for a closer look

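Some members changed in opposite directions against naive cells in 2 groups, with both changes called and the difference between the 2 groups itself called by limma. Nt5e was above naive cells at 4 h in vitro (0.63 on the log2 scale) and below them at 12 h (-0.63) and 24 h (-1.75), and the differences from 4 h were -1.26 (adjusted p = 2.68e-05) and -2.37 (adjusted p = 1.1e-09). Adora2a was above naive cells at 4 h (0.94) and below them at 24 h (-0.72), a difference of -1.66 (adjusted p = 6.02e-06).

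Entpd1 was above naive cells in in vivo activated cells (0.73, the call that ended when any 1 of the 6 libraries was left out) and below them in GC cells, and the difference from in vivo activated cells was -5.72 at the early, -6.90 at the peak and -5.19 at the late stage (adjusted p = 1.03e-12, 3.1e-14 and 4.25e-12). Ada showed the reverse, below naive cells when activated in vivo (-0.87) and above them in GC cells, with differences of 5.24, 5.16 and 4.90 at the early, peak and late stages (adjusted p = 2.71e-23, 3e-23 and 6.56e-23). In each case the 3 libraries of one group did not overlap those of the other.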

How the results depend on the processing

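Over the 15 comparisons, 73 of 90 values of the 6 members tested were called. Under all alternatives run, none of the 73 changed sign, 9 lost the call under at least 1 alternative, and 5 of the other values gained one. With the replicate block, 1 member call changed (Entpd1, in vivo activated against naive, 0.73, adjusted p = 0.0527). Deviations of same-numbered libraries correlated at -0.369 to 0.112 (1 of 84 pairs above 0.1). Number means had been equalized before deposit, which by itself pulls these correlations below 0 and leaves the block no difference to remove. Neither check can therefore show whether the numbers pair the samples. The main fit did not pair them, and the spread may be understated. Entpd1 in peak against early GC cells was not called with only the 2 groups in the fit (adjusted p = 0.178), with no filter (0.0592) or with 1 CPM added (-0.54, 0.0531). The call on Entpd1 in in vivo activated against naive cells was also lost with no filter (0.104) and with no trend (0.051), and that on Adora2a at 24 h against 12 h with no filter (0.0506). Adding 1 CPM before the logarithm moved called values of low genes by over 1.5 times, for example Nt5e at 4 h (0.41) and in in vivo activated cells (0.44) against naive cells, and from 12 h to 24 h (-0.45).

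Genes called numbered 1568 between peak and early GC cells, 3877 between late and peak and 4169 between late and early, and with only the 2 groups in the fit 610, 1207 and 2381, where fewer residual degrees of freedom remain. With 1 library left out, the count between peak and early GC cells was 1034 to 1549, and 3 to 4 members in place of 5 were called between in vivo activated and naive cells. Values that were not called changed sign with 1 library left out: Adora2a at 12 h (-0.16 to 0.25) and in vivo (-0.13 to 0.28) against naive, Slc29a1 in peak against early GC (-0.09 to 0.05), Adk in late against peak GC (-0.05 to 0.06), Slc29a1 at 24 h against 12 h (-0.03 to 0.04), Nt5e in vivo against 4 h (-0.22 to 0.27) and Adora2a in vivo against 12 h (-0.11 to 0.15). Adora2b lies near the floor, and depth, which would set its limit, is unknown.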

Other observations

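The same pathway lists were read in activated cells outside the GC. At 24 h in vitro against naive cells, 18 of the 26 tested genes for intracellular adenosine, AMP and purine salvage rose and 4 fell (median 1.13 against -0.01 over all genes tested, of which 5018 of 11885 rose and 5056 fell). Impdh2, which opens guanine nucleotide synthesis, rose from 7.18 ± 0.03 to 9.08 ± 0.04 (1.90 ± 0.05, limma adjusted p = 9.31e-20), and Samhd1, a deoxynucleotide phosphohydrolase gene, fell from 9.42 ± 0.02 to 7.57 ± 0.05 (-1.85 ± 0.07, adjusted p = 1.04e-16). In in vivo activated cells 18 of the 26 also rose and 5 fell (median 0.77; over all genes 4662 rose and 4762 fell), with Ahcy, which releases adenosine from S-adenosylhomocysteine, higher by 1.83 ± 0.07 (limma adjusted p = 1.67e-16). Of the 11 phosphodiesterases, none rose and 9 fell at 24 h, and 1 rose and 8 fell in in vivo activated cells, beside the same counts over all genes. Pde2a fell to 4.60 ± 0.22 at 24 h and to 2.37 ± 0.21 in in vivo activated cells, from 8.33 ± 0.18 in naive cells (-3.73 ± 0.12 and -5.95 ± 0.12). Of the ecto-nucleotidases, Enpp1 was below naive cells at 24 h (-2.61 ± 0.07) and in in vivo activated cells (-1.70 ± 0.07), while Alpl was above them (1.67 ± 0.18 and 3.38 ± 0.18). In both groups, Enpp1 and Alpl thus moved in the direction opposite to that in peak GC cells. These comparisons share the naive libraries.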
